A study of Mus musculus with 4 samples.

Results

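Medullary thymic epithelial cells (mTECs) express many genes that are otherwise restricted to single organs, and 10 such genes of the exocrine pancreas type were followed here. They were the carboxypeptidase genes *Cpa1* and *Cpb1*, the elastase genes *Cela1*, *Cela2a* and *Cela3b*, the chymotrypsinogen gene *Ctrb1*, the lipase gene *Pnlip*, the colipase gene *Clps*, and the Reg lectin genes *Reg3b* and *Reg3g*. They were selected by gene symbol, and all 10 were found among the 23337 genes of the count table. RNA-seq had been performed on mTECs from the thymus of C57BL/6 mice aged 4 weeks, sorted as CD45-EpCAM+UEA-1+Ly51- cells. Of the 4 libraries, 2 came from wild-type (WT) mice, which lacked *Foxn1*-Cre, and 2 from mice whose genotype is labelled Sirt6-/-. According to the study's methods, the latter were *Foxn1*-Cre *Sirt6* loxp/loxp mice, called *Sirt6* cKO. The study describes this knockout as specific to thymic epithelial cells. How many mice went into each library is not given in the sources used here.

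The acinar cells of the pancreas store digestive enzymes as inactive precursors in zymogen granules and release them into the gut, where proteases, lipases with their cofactor colipase, and amylases break down food. Reg proteins are small secreted lectins, and the Reg3 proteins act as antimicrobial factors of the gut and are also made by the injured or inflamed pancreas. In mTECs, such tissue-restricted antigens (TRAs) are displayed to developing T cells, a process that depends on the transcriptional regulators AIRE and FEZF2 for many of these genes and that favours deletion or regulatory T cell fate of self-reactive clones.

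The libraries held 61102704 to 65907745 counts, and 18608 to 19475 genes were detected with at least 1 count. The targeted gene *Sirt6* had 622 and 755 counts in WT but 882 and 835 where the label is *Sirt6* cKO (log2 fold change 0.37, standard error 0.32). It was thus not lower there, and every direction below rests on the labels. Gene-level counts do not show whether single exons were lost. Levels are given as CPM (counts scaled per library to a common total, with library sizes corrected by edgeR's TMM factors), or as the deposited TPM, which also corrects for transcript length. A gene is called lower or higher where the quasi-likelihood test of edgeR gave an unadjusted p under 0.05. This call was met by 3.32% of the 18547 tested genes as lower and by 5.27% as higher in the cKO-labelled libraries, 8.58% in all, so that 61.4% of the calls were higher. Scaling by the upper quartile gave a split of 48.4%, and scaling by library size alone gave 46.2%. At an adjusted p of 0.05, edgeR called 1 gene higher (0.00539%) and 0 lower, against 615 lower genes at the unadjusted p, and DESeq2 called 201 higher and 156 lower. None of the 10 genes reached an adjusted p of 0.05 in edgeR (0 genes), whereas 4 passed the unadjusted p. The study's methods call the 2 samples of a group independent but do not say how many mice each held, so p-values measure the spread between these libraries only.

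In the plot of TPM by gene, the 10 genes spanned more than 3 orders of magnitude. *Reg3g* was by far the most abundant, with 1275 and 1565 TPM in WT and 602 and 551 TPM in the cKO-labelled libraries. It ranked 68 and 57 among all genes in the WT libraries and 204 and 231 in the cKO-labelled ones. *Reg3b* came next with a mean of 166 TPM over the 4 libraries, followed by *Ctrb1* with 78.6 TPM. *Cela2a* (13.3 TPM) and *Cela1* (11.9 TPM) formed the middle of the order, and *Cela3b* (5.84 TPM), *Pnlip* (5.77 TPM) and *Clps* (5.28 TPM) lay close together. *Cpb1* (1.06 TPM) and *Cpa1* (0.62 TPM) were the lowest. Between neighbours in this order, the 4 libraries did not overlap for *Reg3g* against *Reg3b*, for *Ctrb1* against *Cela2a*, and for *Clps* against *Cpb1*. All other neighbours overlapped. Together the 10 genes took 0.0580% and 0.0773% of the counts in WT and 0.0269% and 0.0247% in the cKO-labelled libraries. The *Reg3* genes made up between 84.0% and 90.7% of that sum, so the enzymes were a small part of it.

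**Figure D1:**
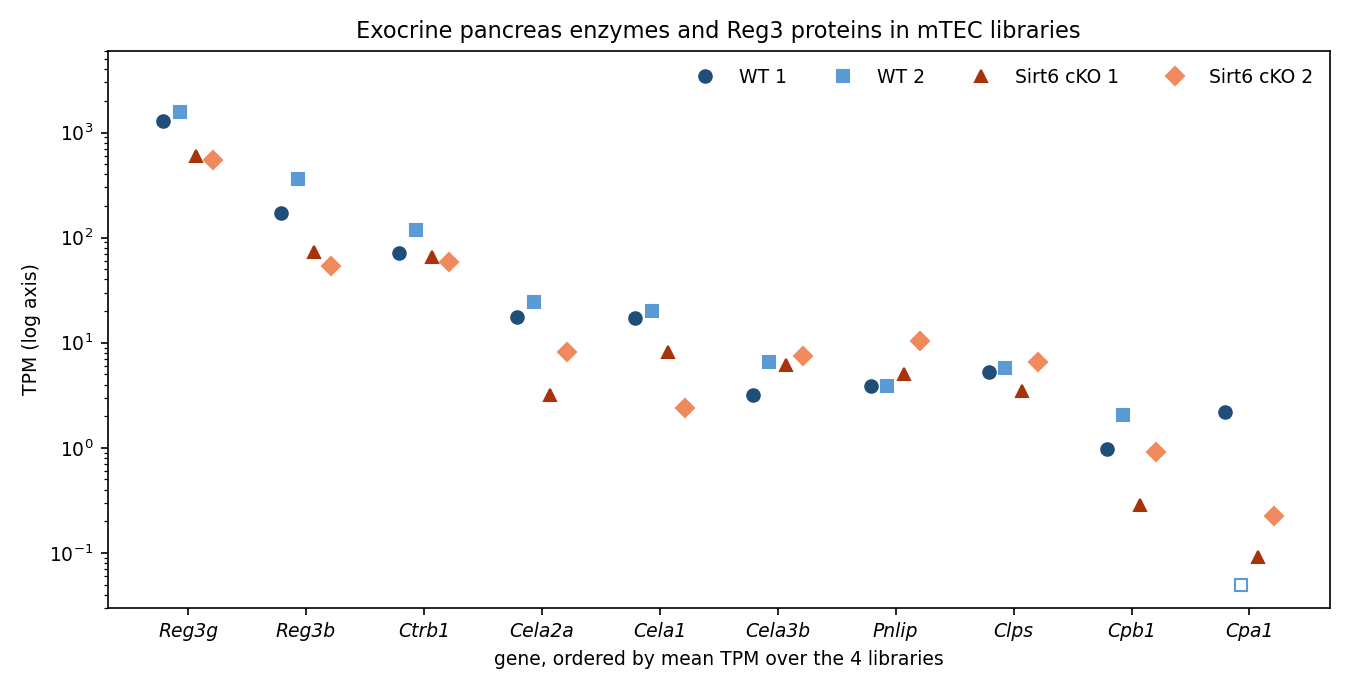
TPM (log axis) of the 10 genes in each of the 4 libraries, ordered by their mean over the libraries. Each point is 1 library, and the open square for *Cpa1* marks WT 2, where no read was counted. *Reg3g* lies above all other genes in every library, and the 2 cKO-labelled libraries lie below both WT libraries for *Reg3g*, *Reg3b*, *Ctrb1*, *Cela2a*, *Cela1* and *Cpb1*.

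Both Reg3 genes were lower in the cKO-labelled libraries, and they had the smallest p-values of the 10. *Reg3g*, which encodes the lectin REG3G that binds the cell wall of Gram-positive bacteria, had 29797 and 34557 counts in WT against 12900 and 12483 in the cKO-labelled libraries. Its mean fell, at 499 ± 62.1 CPM in WT and 204 ± 13.5 CPM under the cKO label (SD, n = 2 each), and the groups did not overlap. It was 2.44-fold lower (log2 fold change -1.29, standard error 0.17, edgeR adjusted p = 0.38) and ranked 24 among all tested genes by p-value. *Reg3b*, which encodes a close relative and is also known as pancreatitis-associated protein, had 3946 and 7864 counts in WT against 1537 and 1194 in the cKO-labelled libraries. Here the WT libraries differed from each other by 2.05 times, while the cKO-labelled libraries both lay below the lower of them. Its mean fell, at 91.9 ± 44.8 CPM in WT and 22.0 ± 4.84 CPM under the cKO label (SD, n = 2 each), a 4.17-fold difference (log2 fold change -2.06, standard error 0.42, edgeR adjusted p = 0.54). Without WT 2 the log2 fold change of *Reg3b* was -1.45, and without WT 1 it was -2.51. DESeq2 gave adjusted p-values of 4.22e-06 for *Reg3g* and 2.29e-04 for *Reg3b*, and 0.823% of all genes were lower at an adjusted p under 0.05 with that tool. *Reg3g* stood at between 4.31 and 10.3 times the TPM of *Reg3b*, with WT 2 at the low end. Since the cells were measured in bulk, fewer cells expressing a gene and less RNA per cell cannot be told apart.

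The regions before the start sites of both Reg3 genes are printed because these genes fell together. The windows searched are the 250 bases before each start in RefSeq (GRCm38.p6), at chr6:78468875-78469124 on the minus strand for *Reg3g* and at chr6:78370635-78370884 on the plus strand for *Reg3b*. RefSeq and GENCODE place the *Reg3b* start differently, so 228 bases of its window lie inside the GENCODE gene, 74 of them in exons, while the *Reg3g* window lies outside the gene. Printed 5′ to 3′ along the gene is the longest stretch of each window outside the GENCODE exons of its gene, which is the whole window for *Reg3g* and 154 bases at chr6:78370707-78370860 for *Reg3b*. Capitals mark matches, on either strand, to the TATA box TATAAA, to TGGGAA (the core bound by RBPJ), to CACCTG (an E-box of the kind bound by PTF1A) and to TTCNNNGAA (the STAT motif) that lie wholly in the stretch.
Reg3g: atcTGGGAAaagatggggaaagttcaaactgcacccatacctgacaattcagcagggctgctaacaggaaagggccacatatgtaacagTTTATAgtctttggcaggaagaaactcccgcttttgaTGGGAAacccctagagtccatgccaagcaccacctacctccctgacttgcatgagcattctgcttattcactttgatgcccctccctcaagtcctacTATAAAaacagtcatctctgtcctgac
Reg3b: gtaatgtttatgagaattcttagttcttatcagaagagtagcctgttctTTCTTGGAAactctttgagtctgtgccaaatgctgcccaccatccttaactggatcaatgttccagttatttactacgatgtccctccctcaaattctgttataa
Both windows end in the same 20 bases, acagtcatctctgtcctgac, and 70.8% of their 250 bases were identical in a global alignment. The other 44 pairs among the windows of 9 of the 10 genes and *Reg1* ranged from 55.2% to 60.8% identical, with shared runs of at most 10 bases. The TATA box lies 27 bases before the RefSeq start in *Reg3g* and 29 in *Reg3b*, where it crosses the end of the printed stretch, and 12.4% of the 32851 promoter windows in the table hold one. A second match in *Reg3g* lies on the other strand. No matches overlapped one another in these windows. The *Reg3g* window also holds TGGGAA 2 times, and the *Reg3b* window holds CACCTG 1 time, outside the printed stretch. The STAT motif occurs in the *Reg3b* window alone among the 9 and in 7.02% of all windows. These matches are letters in a window, and nothing was measured here about a factor at these sites.

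*Reg3b* and *Reg3g* lie at the outer ends of a run of 6 Reg genes on chromosome 6 (78370657 to 78468872, 98216 bases in GRCm38, the assembly of mm10), and the other 4 genes were measured as well. *Reg1*, which encodes the pancreatic stone protein lithostathine, had 1987 and 3360 counts in WT against 938 and 1169 in the cKO-labelled libraries. It fell, at 41.6 ± 15.9 CPM in WT and 16.9 ± 1.90 CPM under the cKO label (SD, n = 2 each), with -1.30 on the log2 scale (standard error 0.36, edgeR adjusted p = 0.54). Its call was lost without WT 2, at -0.85, and without *Sirt6* cKO 1, at -1.19. *Reg3a*, another lectin gene of the run, had 302 and 152 counts in WT against 215 and 116 in the cKO-labelled libraries. Its groups overlapped, and its log2 fold change was -0.38 (standard error 0.70). For *Reg2*, the WT libraries held 5 and 31 counts and the cKO-labelled ones 0 each, and *Reg3d* had 16 counts in WT 1 and 0 in the other libraries. Neither passed the filter on low counts. *Reg4*, a relative on chromosome 3, had 312 and 253 counts in WT against 188 and 226 in the cKO-labelled libraries, with a log2 fold change of -0.40 (standard error 0.51). Of the 5 Reg genes that were not among the 10, 3 were thus tested, and 1 of these was called lower and 0 higher. None of the Reg3 genes shared 50-base words with another annotated gene, and 3.74% of the words of *Reg1* did.

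**Figure D2:**
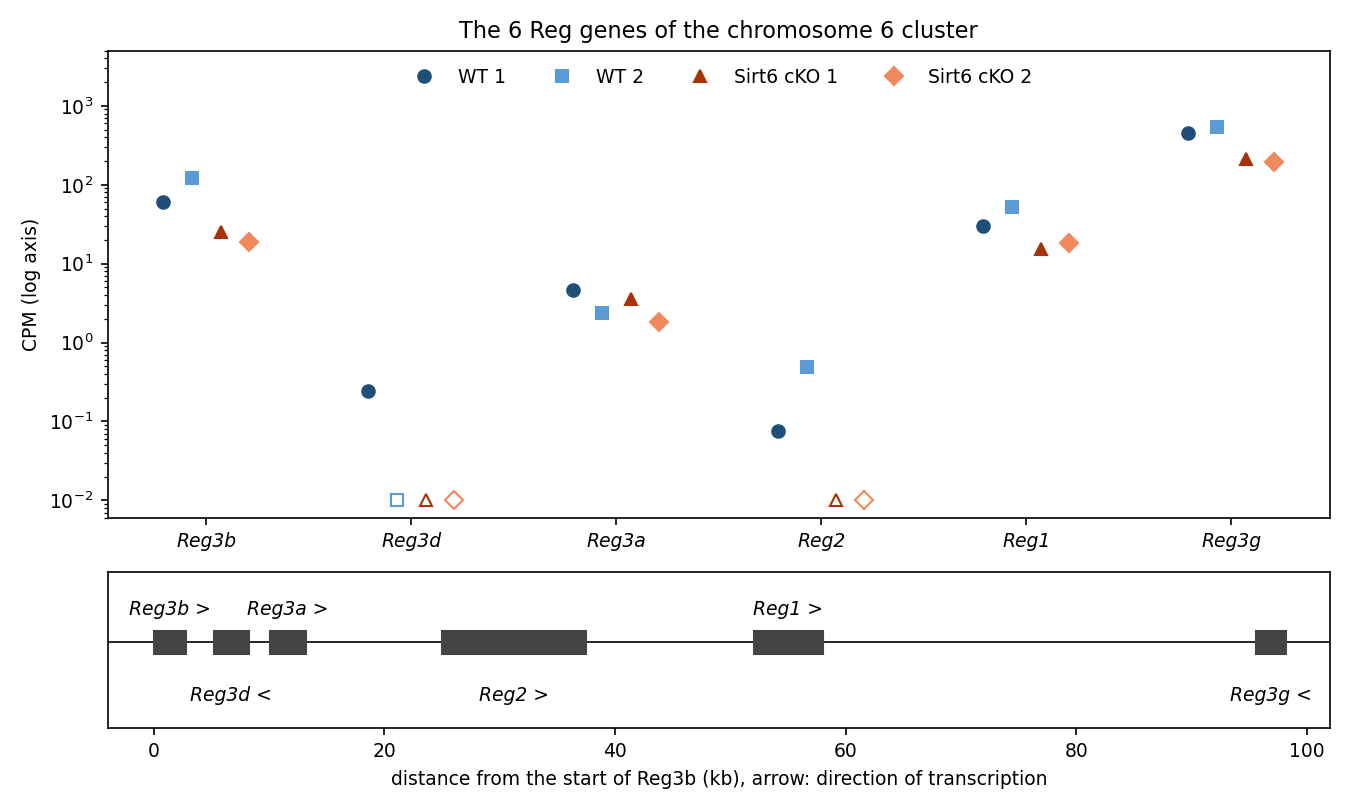
CPM (log axis) of the 6 clustered Reg genes in each library, in the order of the genes along the chromosome, above a map of the genes by distance from the start of *Reg3b* in kilobases. Open symbols stand for libraries with 0 counts and are drawn at the bottom of the axis. *Reg3b*, *Reg1* and *Reg3g* show both cKO-labelled libraries below both WT libraries, while *Reg3a* overlaps.

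Of the elastase genes, which encode serine proteases that cleave elastin and other proteins, *Cela1* and *Cela2a* were lower in the cKO-labelled libraries and *Cela3b* did not pass the test. *Cela1* (chromosome 15, from 100674421 to 100687921) had 569 and 636 counts in WT against 251 and 78 in the cKO-labelled libraries. Its mean fell, at 9.34 ± 0.92 CPM in WT and 2.69 ± 2.08 CPM under the cKO label (SD, n = 2 each), so it was 3.48-fold lower (log2 fold change -1.80, standard error 0.67, edgeR adjusted p = 0.56). The WT libraries were close to each other, and *Sirt6* cKO 1 held 3.42 times the level of *Sirt6* cKO 2 (exact 95% interval 2.64 to 4.47, counting error only). *Cela2a* (chromosome 4, from 141814962 to 141826160) had 484 and 636 counts in WT against 80 and 217 in the cKO-labelled libraries. It fell, at 8.69 ± 1.84 CPM in WT and 2.35 ± 1.46 CPM under the cKO label (SD, n = 2 each), so it was 3.69-fold lower (log2 fold change -1.88, standard error 0.61, edgeR adjusted p = 0.54). For *Cela2a* the order of the cKO-labelled libraries was opposite to that of *Cela1*, with *Sirt6* cKO 2 at 2.55 times the level of *Sirt6* cKO 1. Both calls were lost in some fits without a single library, although the log2 fold changes stayed negative in all of these fits. The *Cela1* call was lost without WT 1 (-1.92), without WT 2 (-1.69) and without *Sirt6* cKO 2 (-1.18), and the *Cela2a* call was lost without WT 2 (-1.65) and without *Sirt6* cKO 1 (-1.36). The level of *Cela1* without *Sirt6* cKO 1 gave -2.94, and that of *Cela2a* without *Sirt6* cKO 2 gave -2.73. *Cela3b* had 86 and 168 counts in WT against 152 and 197 in the cKO-labelled libraries, which overlapped, and its log2 fold change was 0.50 (standard error 0.73). The counts of *Cela2a* are uncertain in part, because its exons overlap those of *Casp9* on the other strand and of *Ctrc* on the same strand by 399 bases in all, and 25.6% of its 50-base words also occur in *Ctrc*. *Ctrc* itself held 33 counts at most. In *Cela3b*, 10.1% of the words are shared with *Cela3a*, which is not analysed here.

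The windows before the elastase starts are shown because 2 of these genes were called lower and 1 was not. In the same build they lie at chr15:100687921-100688170 for *Cela1*, chr4:141826006-141826255 for *Cela2a* and chr4:137430521-137430770 for *Cela3b*, all on the minus strand, with capitals marking the same 4 motifs as above. GENCODE starts lie further upstream than these RefSeq starts, by 155 bases in *Cela2a*, 20 in *Cela3b* and 1 in *Cela1*, and these exonic bases of the windows are left out of the print, which holds 95, 230 and 249 bases.
Cela1: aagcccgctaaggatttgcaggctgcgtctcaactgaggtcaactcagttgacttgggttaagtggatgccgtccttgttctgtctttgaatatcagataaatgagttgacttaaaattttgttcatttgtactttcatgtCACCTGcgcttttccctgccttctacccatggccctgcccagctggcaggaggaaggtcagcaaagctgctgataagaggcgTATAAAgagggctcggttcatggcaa
Cela2a: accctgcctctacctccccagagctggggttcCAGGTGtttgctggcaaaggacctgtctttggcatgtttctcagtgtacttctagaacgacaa
Cela3b: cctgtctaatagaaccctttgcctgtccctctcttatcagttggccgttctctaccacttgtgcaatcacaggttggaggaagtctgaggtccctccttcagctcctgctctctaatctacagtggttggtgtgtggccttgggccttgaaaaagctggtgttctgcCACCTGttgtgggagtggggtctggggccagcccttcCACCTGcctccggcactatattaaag
Each of the 3 windows holds the E-box CACCTG on one strand or the other, once in *Cela1* and *Cela2a* and 2 times in *Cela3b*. Of all windows in the table, 17.2% hold it. TGGGAA, which 21.6% of all windows hold, occurs in *Cela2a* only among these 3 genes, in the exonic part of its window, and the TATA box in *Cela1* only. Among the 9 of the 10 genes with a window, CACCTG was found in 5, TGGGAA in 5 and TATAAA in 4. Here too the matches are letters in a window, no factor was measured at these sites, and a link between motifs and calls was not tested.

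*Ctrb1*, which encodes chymotrypsinogen B and was the most abundant enzyme gene of the 10, had 1901 and 3021 counts in WT against 1606 and 1525 in the cKO-labelled libraries. The groups did not overlap, but WT 1 lay close to the cKO-labelled libraries, with 29.0 CPM against 26.6 and 23.8 CPM. The means were 38.3 ± 13.0 CPM in WT and 25.2 ± 2.003 CPM under the cKO label (SD, n = 2 each), with a log2 fold change of -0.60 (standard error 0.33) that did not pass the test. This value hung on the WT libraries, at -0.94 and past the unadjusted p without WT 1, and at -0.20 without WT 2. *Ctrb1* held between 55.2% and 68.1% of the counts of the 8 enzyme and colipase genes in each library. The summed level of these 8 genes was 52.6 and 75.4 CPM in WT and 39.1 and 40.8 CPM in the cKO-labelled libraries.

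The carboxypeptidases, which trim amino acids from the C-terminal end of proteins, were at the edge of detection. *Cpb1* had 44 and 88 counts in WT against 12 and 40 in the cKO-labelled libraries. Its groups did not overlap, although WT 1 at 0.67 CPM and *Sirt6* cKO 2 at 0.62 CPM were almost level, and its log2 fold change was -1.32 (standard error 1.28). For *Cpa1*, WT 1 held 104 counts and WT 2 held 0, while the cKO-labelled libraries held 4 and 11. The WT libraries thus enclosed both cKO-labelled ones, and WT 1 held at least 26.9 times the level of WT 2 by the lower end of an exact 95% interval for counting error. The fitted log2 fold change of *Cpa1*, -2.72 (standard error 2.50), rested on WT 1. Without WT 1 the fitted value was 5.92, a number set by the prior count since WT 2 held 0 reads. No direction can be given for *Cpa1* from these libraries.

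Neither of the fat-digesting genes passed the test. *Pnlip*, which encodes pancreatic triglyceride lipase, had 174 and 166 counts in WT against 206 and 450 in the cKO-labelled libraries. It was the only one of the 10 genes in which both cKO-labelled libraries lay above both WT libraries, which 21.6% of all tested genes did. Its means were 2.63 ± 0.035 CPM in WT and 5.21 ± 2.55 CPM under the cKO label (SD, n = 2 each), and the log2 fold change of 0.99 (standard error 0.59) did not pass the test and lay at 0.36 without *Sirt6* cKO 2. *Clps*, whose product anchors the lipase to fat droplets, had 79 and 82 counts in WT against 48 and 96 in the cKO-labelled libraries. These enclosed both WT libraries, and the log2 fold change was -0.12 (standard error 0.96).

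Across the 10 genes, 4 were called lower (*Reg3g*, *Reg3b*, *Cela1* and *Cela2a*) and 0 higher, against 3.32% of all tested genes called lower. Only 2 of these calls remained without WT 2, those of *Reg3g* and *Reg3b*. In 6 genes both cKO-labelled libraries lay below both WT libraries, which held for 20.3% of all tested genes. The log2 fold change was negative in 8 of the 10 genes, against 50.4% of all genes, and its median was -1.30, against -0.0047 over all genes. These 8 include *Cpa1*, for which no direction can be given, and *Clps*, at -0.12 (standard error 0.96). The 10 genes were chosen with earlier results of these data known, so these counts describe the group and do not test it.

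**Figure D3:**
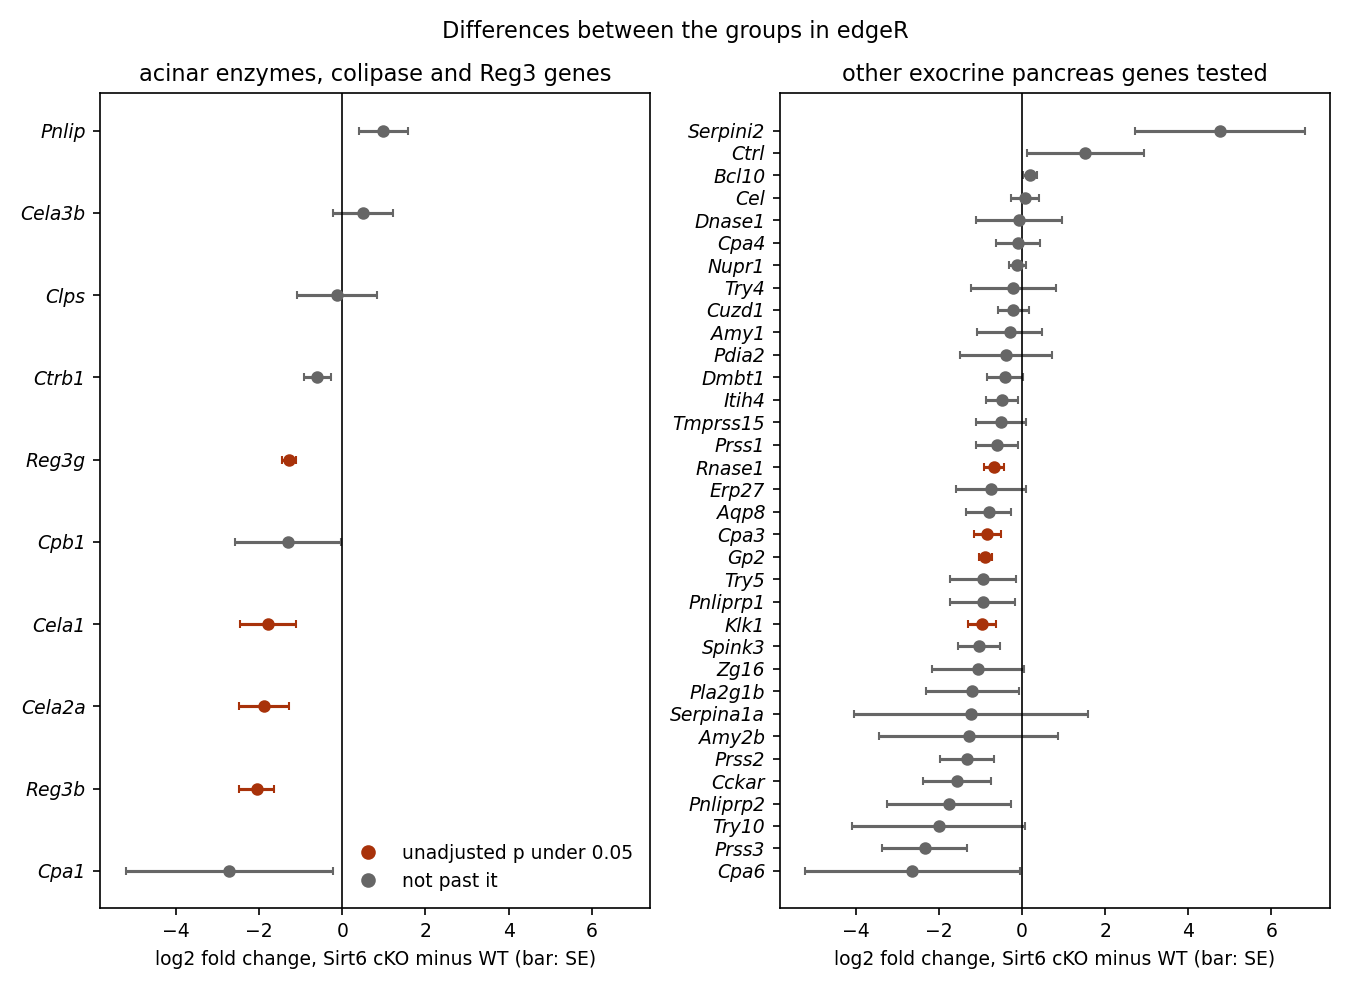
Log2 fold change (cKO-labelled minus WT, edgeR) of the 10 genes on the left and of other exocrine pancreas genes tested on the right, with bars for the standard error. Red points passed an unadjusted p of 0.05, and the bars are widest for genes near the detection limit such as *Cpa1* and *Serpini2*.

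**Figure D4:**
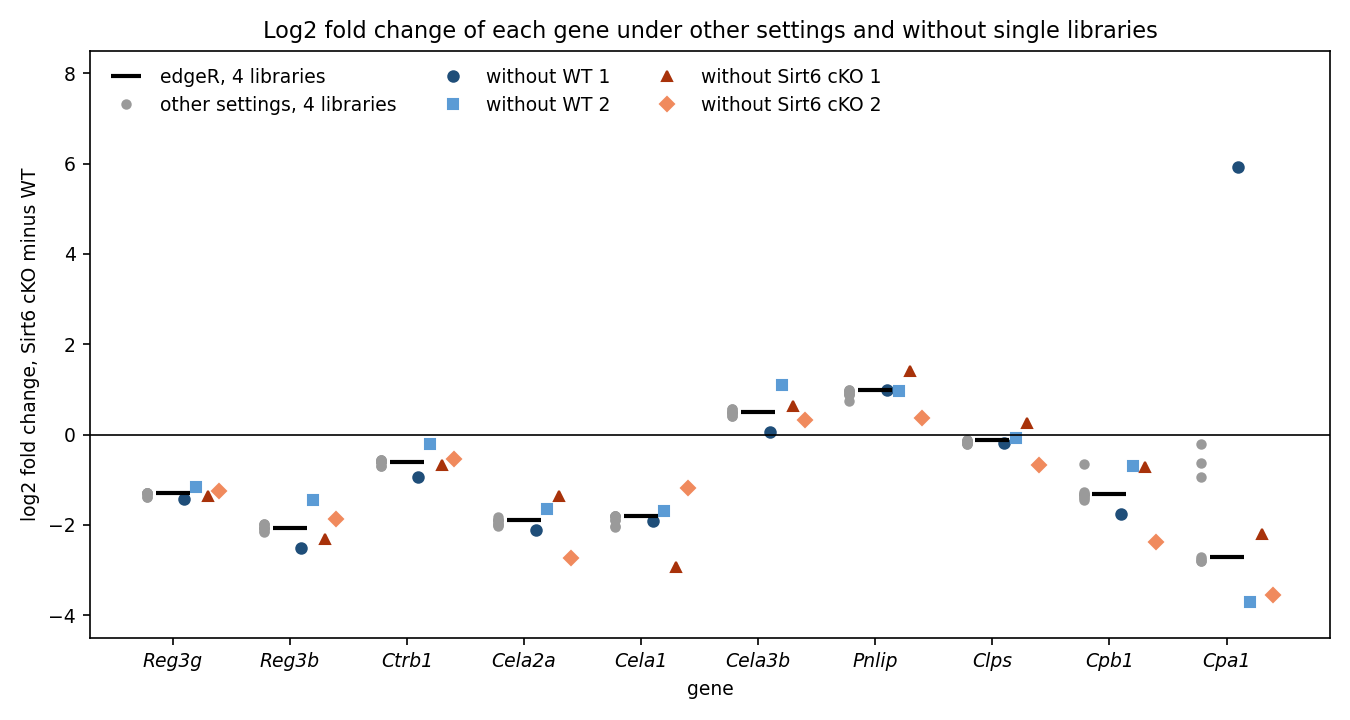
Log2 fold change of each of the 10 genes with all 4 libraries in edgeR (black line), under the other settings (grey points) and without each library in turn (coloured symbols). *Reg3g* and *Reg3b* stay below -1 throughout, *Cela1* and *Cela2a* stay below -1 with wide spread, and *Cpa1* turns to 5.92 without WT 1.

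Other genes of the exocrine pancreas were taken from lists of digestive enzymes and of zymogen granule proteins, with 43 of 47 listed symbols in the count table and 35 of these tested. Of the 35 genes, 4 were called lower and 1 higher, against 3.32% and 5.27% of all tested genes. The log2 fold change was negative in 30, against 50.4% of all genes, and the median was -0.75, against -0.0047. The lists were also chosen with earlier results of these data known, so these counts describe the genes and do not test them. *Gp2*, the main membrane glycoprotein of zymogen granules and also a marker of microfold cells, had 35724 and 34993 counts in WT against 16676 and 20420 in the cKO-labelled libraries. It fell, at 548 ± 2.91 CPM in WT and 297 ± 29.7 CPM under the cKO label (SD, n = 2 each), with -0.88 on the log2 scale (standard error 0.16), and was the only one of the 35 with an adjusted p under 0.05 in DESeq2 (0.00347). *Klk1*, a tissue kallikrein, had 6320 and 6729 counts in WT against 4053 and 2325 in the cKO-labelled libraries (log2 fold change -0.97, standard error 0.34). *Rnase1*, the pancreatic ribonuclease, had 2851 and 2498 counts in WT against 1615 and 1596 in the cKO-labelled libraries (-0.68, standard error 0.24). *Cpa3*, a carboxypeptidase of mast cells rather than of acinar cells, had 3184 and 1903 counts in WT against 1340 and 1401 in the cKO-labelled libraries (-0.83, standard error 0.32). The call of *Rnase1* was lost whichever library was left out, that of *Cpa3* without WT 1, *Sirt6* cKO 1 or *Sirt6* cKO 2, where it lay at -0.47 without WT 1, and that of *Klk1* without WT 1, WT 2 or *Sirt6* cKO 2, where it lay at -0.61 without *Sirt6* cKO 2.

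The trypsinogen genes, whose products activate the other precursors in the gut, all had negative log2 fold changes, from -2.34 to -0.21, but 0 of the 6 passed the unadjusted p in edgeR, and 1 passed it in DESeq2. *Prss3* was at the low end with 128 and 280 counts in WT against 16 and 63 in the cKO-labelled libraries (standard error 1.03). *Prss2* had 287 and 353 counts in WT against 77 and 173 in the cKO-labelled libraries, with a log2 fold change of -1.32 (standard error 0.64). The most abundant, *Prss1*, had 415 and 495 counts in WT against 186 and 399 in the cKO-labelled libraries (-0.60, standard error 0.51). The summed level of the 6 genes was 17.2 and 27.4 CPM in WT and 6.71 and 15.6 CPM in the cKO-labelled libraries. Between 7.83% and 66.1% of the 50-base words of these genes occur in another annotated gene, mostly another trypsinogen or *Gm5771* and *Gm10334*, so the share of each copy is uncertain. *Cel*, the bile salt-activated lipase, had 991 and 1481 counts in WT against 1195 and 1318 in the cKO-labelled libraries. Its log2 fold change of 0.07 (standard error 0.33) turned to -0.0086 when scaled by the upper quartile and to -0.021 by library size alone. *Bcl10* and *Nupr1*, which are expressed in many tissues, were the other abundant genes of the lists and differed by 0.20 (standard error 0.17) and -0.11 (standard error 0.20) on that scale. Of the amylase genes, *Amy1*, the salivary type, had 151 and 114 counts in WT against 76 and 134 in the cKO-labelled libraries, while the pancreatic-type genes *Amy2a3*, *Amy2a4* and *Amy2a5* had 0 counts in all libraries and *Amy2a2* had 28 counts in *Sirt6* cKO 2 only. *Amy2b*, also of the pancreatic type, had 18 and 24 counts in WT against 0 and 17 in the cKO-labelled libraries. The granule gene *Sycn* had at most 4 counts, and *Aqp12* had 0. The acinar genes were thus measured at very unequal levels, from 0 counts to the level of *Gp2*.

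Genes that control acinar cells, Reg3 expression or TRAs did not follow one direction. Of 21 tested transcription factors of acinar and neighbouring pancreatic cells, 1 was called lower and 2 higher, against 3.32% and 5.27% of all tested genes. Their median log2 fold change was -0.0067. *Ptf1a*, which drives the acinar enzyme program, had 80 and 36 counts in WT against 154 and 214 in the cKO-labelled libraries (1.72, standard error 0.83) and did not pass the test. *Rbpjl*, its acinar partner, had 23 and 34 counts in WT against 58 and 43 in the cKO-labelled libraries (0.88, standard error 1.20). *Xbp1*, a factor of secretory cells, was lower (-0.52, standard error 0.18), and *Sox9* (0.43, standard error 0.17), a factor of duct and progenitor cells, was higher. The call of *Sox9* held under only 3 of the 12 alternatives and was lost in DESeq2 and whichever library was left out. That of *Xbp1* was lost without WT 1, at -0.36, and without either cKO-labelled library.

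Of 16 genes of the signals known to control Reg3 genes, 0 were called lower and 1 higher in edgeR. The shares over all tested genes were 3.32% and 5.27%. *Stat3*, through which interleukin-22 and interleukin-6 induce Reg3 genes, had 27474 and 29198 counts in WT against 31783 and 39923 in the cKO-labelled libraries (0.39, standard error 0.16) and did not pass the test. *Socs3*, a target of STAT3, and *Myd88*, the adaptor of Toll-like receptors, had values of 0.12 (standard error 0.18) and 0.27 (standard error 0.29), which turned to -0.078 without WT 1 and to -0.049 without WT 2. The gene called higher was *Il17rd*, which encodes a receptor-like regulator of interleukin-17 and growth factor signals, with 12 and 0 counts in WT against 143 and 269 in the cKO-labelled libraries. Its call was lost without either cKO-labelled library. *Il22ra1*, the receptor chain for interleukin-22, was low and uneven, with 53 and 5 counts in WT against 49 and 409 in the cKO-labelled libraries.

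Of 13 genes that regulate TRAs, 4 were called higher and 0 lower in the same test, against 5.27% and 3.32% of all tested genes. *Aire* had 23001 and 27268 counts in WT against 33779 and 42559 in the cKO-labelled libraries (0.65, standard error 0.18), while *Fezf2* had 43961 and 43889 counts in WT against 23313 and 51499 in the cKO-labelled libraries (-0.20, standard error 0.35). *Spib*, an Ets family factor, was higher (1.13, standard error 0.14), as were *Prdm1* (1.70, standard error 0.55) and *Irf8* (0.40, standard error 0.15). Leaving out 1 library ended the call of *Aire* for WT 1 (0.49) or *Sirt6* cKO 2 (0.50), that of *Prdm1* for WT 2 (1.20) or *Sirt6* cKO 1 (1.18), and that of *Irf8* for each of the 4 libraries. *Irf8* passed the unadjusted p under only 1 of the 12 alternatives, and DESeq2 was among those where it did not.

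Markers of other cells were measured beside these results. The mTEC markers were present, with *Epcam* at 798 to 1201 TPM over the 4 libraries, and 3 of the 9 were called higher (*Epcam*, *Aire* and *Cd80*) and 1 lower (*Ccl21a*). The CD45 gene *Ptprc* stood at 106 to 177 TPM despite the sort for CD45- cells. Of 6 macrophage and dendritic cell markers, *Cd68* and *Lyz2* were called lower, 4 did not pass the test, and none was at 0. Among these 4, *Itgam* had a positive log2 fold change (0.57, standard error 0.64) and the rest had negative ones. The summed level was 9741 and 6071 TPM in WT and 3757 and 4052 TPM in the cKO-labelled libraries. Most of it was *Lyz2*, with 9532 and 5941 TPM in WT and 3664 and 3955 TPM in the cKO-labelled libraries. Of 5 tuft cell markers, 3 were called lower (*Gnat3*, *Avil* and *Trpm5*), with sums of 186 and 212 TPM against 125 and 115 TPM. The other 2 had positive log2 fold changes and did not pass the test. These were *Dclk1* (0.36, standard error 0.34) and the tuft cell factor *Pou2f3* (0.24, standard error 0.24). Of 6 Paneth and goblet cell markers, 1 (*Itln1*) was called lower, with sums of 3488 and 3514 TPM against 2205 and 2932 TPM. Most of these sums was *Lyz1*, which did not pass the test. It had 3363 and 3385 TPM in WT against 2133 and 2862 TPM in the cKO-labelled libraries. The defensin gene *Defa24* had at most 2 counts. Of 5 pancreatic duct markers, *Krt19* and *Spp1* were called lower and *Sox9* higher, with sums of 1007 and 1017 TPM against 675 and 695 TPM. In the lists for thymocytes (9 markers), B cells (4), enterocytes (8), pancreatic islets (7) and fibroblasts with endothelium (6), 0 genes were called in either direction, while the summed islet markers were at 128 and 148 TPM in WT and 77.8 and 98.3 TPM in the cKO-labelled libraries. Of 7 microfold markers, *Gp2* was called lower and *Spib* higher, and of 7 cortical epithelial markers 2 were called higher and 0 lower. The macrophage and Paneth sums, which were mostly *Lyz2* and *Lyz1*, were lower in the cKO-labelled libraries, as were the tuft, duct and islet sums. *Reg3g*, *Reg3b*, *Cela1* and *Cela2a* had the same direction, and the part of these cells in those differences was not tested.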

How the data were processed

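RNA-seq libraries of sorted mTECs were analysed, 2 per group. Reads had been trimmed by the authors (Trim Galore), then mapped to the mm10 genome using HISAT2 (version 2.1.0) and summarised per gene using StringTie (version 1.3.3), per the labels and the study's methods. The gene annotation and the strand setting are not given in the sources used here. The deposited counts are whole numbers without normalization. The deposited TPM signal is scaled by the authors for transcript length and library total, and a line holding the column total was left out.

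Counts were tested with edgeR 4.0.16 in R 4.3.3 (filterByExpr with minimum count 10 and minimum total 15, TMM, glmQLFit, glmQLFTest, Benjamini-Hochberg over all 18547 genes). Standard errors are the log2 fold change divided by the root of the F statistic. CPM used the effective library sizes, and 3 counts equal 0.0458 to 0.0497 CPM. Exact permutation of 2 against 2 libraries cannot go below p = 0.333. The pairs of libraries differed by far more than sampling noise (chi-square per gene 161 or more). Alternatives used DESeq2 1.42.0, limma 3.58.1 on log2(TPM + 1) and log2(TPM + 0.1), other filters and scalings, a replicate block, and each library left out. The procedure was run on simulated data, which had less spread between replicates than these libraries. Changes were set there only in genes above the count filter, so the run does not show how the tests perform for low genes. Positions and shared 50-base words came from GENCODE M21, and windows before start sites, which differ from GENCODE starts in some genes, from RefSeq (9 of the 10 genes matched; *Clps* did not), aligned with Biopython 1.88.

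The members and lists were chosen with earlier results of these data known. Named genes were the 10, *Sirt6*, *Aire*, *Fezf2*, the Reg family, and, per list, up to 5 genes past the unadjusted p and the 3 with the highest mean TPM. *Prss2*, *Prss3*, *Sycn*, *Aqp12*, the amylases, *Ctrc*, *Ptf1a*, *Rbpjl*, *Il22ra1* and the marker genes were named after their values were seen. Some genes counted in the lists are not reported here by name.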

Additional observations from a re-analysis of the deposited data

How the results depend on the processing

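*Reg3g* and *Reg3b* kept their direction and passed the unadjusted p under all 12 alternatives, with log2 fold changes from -1.44 to -1.16 and from -2.51 to -1.45. The number of the 10 genes called lower was 4 under each alternative with all 4 libraries and 2 to 4 without single libraries, and 0 were called higher in any. Their median was -0.92 with the replicate block, -0.64 with limma on log2(TPM + 1), -1.11 with limma on log2(TPM + 0.1), and -1.21 to -0.93 without single libraries. A pseudocount added to TPM draws the log2 ratio of low values towards no change, and its part in these medians was not tested.

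Among the other exocrine genes, the count called lower was 2 with the block, 8 and 7 with limma at pseudocounts of 1 and 0.1, and 2 to 3 without single libraries. The count called higher was 2 with DESeq2 and with both limma fits, 0 with no filter, the TPM filter, upper quartile, library size and the block, and 0 to 1 without single libraries. The median of this list lay between -1.004 and -0.45 without single libraries. Over all genes, without single libraries 314 to 827 were lower and 421 to 1100 higher at the unadjusted p. At an adjusted p of 0.05, DESeq2 gave 156 lower and 201 higher genes, and the count of higher genes was 2 with the TPM filter and with limma at 0.1, and 0 with the block and without any single library. The cause of these shifts was not tested.

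Directions turned in *Cel* (-0.0086 with upper quartile, -0.021 with library size, and -0.23 to 0.41 without single libraries). Without single libraries the ranges also crossed 0 in *Cpa1* (-3.72 to 5.92), *Clps* (-0.67 to 0.27), *Reg3a* (-0.95 to 0.14), *Nupr1* (-0.30 to 0.051), *Socs3* (-0.078 to 0.31), *Myd88* (-0.049 to 0.66) and *Fezf2* (-0.83 to 0.24). Leaving one out reduces a group to 1 library, and edgeR then takes its spread from the other group.

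The replicate numbers name the libraries without a stated shared litter or day, and same-numbered libraries deviated with a correlation of -0.051 across genes. The block kept the calls of *Reg3g*, *Reg3b*, *Cela1* and *Cela2a* and ended 7 calls among the other named genes. At these depths the low counts of *Cpa1*, *Cpb1* and *Clps* leave standard errors near or above 1 on the log2 scale.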
